A study of Homo sapiens with 8 samples.

Results

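The loci of LEF1, TCF7 and TCF7L2 were examined in ATAC-seq peak lists of 2 human B cell precursor acute lymphoblastic leukaemia lines, 697 and KOPN-8. ATAC-seq uses the Tn5 transposase to cut and tag accessible DNA, and a peak is a stretch where such cuts pile up above the local background. A peak belonged to a locus when it overlapped a fixed window in hg19, at 108.93 to 109.13 Mb of chromosome 4 for LEF1, 133.43 to 133.51 Mb of chromosome 5 for TCF7 and 114.68 to 114.95 Mb of chromosome 10 for TCF7L2. Of 532743 peaks in 8 lists, 275 lay in the windows, between 27 and 43 per list. Peaks of all lists that shared at least 1 bp were merged, which gave 57 regions in the windows, 28 at LEF1, 7 at TCF7 and 22 at TCF7L2, out of 133028 regions in all. Regions are numbered along their window.

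Each line gave 2 libraries from a clone edited with a guide against SETD2 (clone BM_B in 697, clone BA in KOPN-8) and 2 libraries from control cells carrying an empty guide vector. SETD2 is the enzyme that trimethylates histone H3 at a lysine along transcribed genes, and the labels describe both clones as heterozygous knockouts and the controls as wild type for it. The study asked whether the SETD2 edit changes accessible chromatin. Every clone library of a line came from the same clone, so the edit and other differences of that clone cannot be told apart. The labels name the duplicates biological replicates without saying how the cultures were separated, so p-values measure only the spread between these libraries, which may be technical.

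LEF1, TCF7 and TCF7L2 belong to the TCF/LEF family of transcription factors, which bind DNA through an HMG box. In the canonical WNT pathway, beta-catenin that escapes degradation enters the nucleus and binds these factors, which then activate target genes. Without it they hold Groucho/TLE corepressors at the same sites. LEF1 was first characterised in lymphoid cells and acts in early B and T cell progenitors, TCF7 (also called TCF-1) is needed for T cell development, and TCF7L2 (also called TCF-4) is best known from intestinal epithelium and from the association of its locus with type 2 diabetes.

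RefSeq promoters of the genes are shown to give the sequence context of the loci, as the 250 bases before a transcription start in GRCh38.p14. Matches to the core of the family's own recognition motif, searched as CTTTGA and CTTTGT on both strands (TCAAAG and ACAAAG on the other), are in capitals.
LEF1, minus strand: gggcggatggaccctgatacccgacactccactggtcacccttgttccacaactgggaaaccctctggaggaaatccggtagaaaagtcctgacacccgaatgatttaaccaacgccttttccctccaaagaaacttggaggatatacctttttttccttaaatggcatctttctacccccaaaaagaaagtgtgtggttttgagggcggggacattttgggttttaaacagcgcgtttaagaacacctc
TCF7, the second listed start, plus strand: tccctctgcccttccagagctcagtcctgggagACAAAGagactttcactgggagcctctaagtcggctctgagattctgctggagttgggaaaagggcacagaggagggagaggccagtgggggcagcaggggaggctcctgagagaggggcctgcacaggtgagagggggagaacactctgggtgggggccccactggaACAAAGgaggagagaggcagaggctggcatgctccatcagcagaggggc
TCF7L2, the second listed start, plus strand: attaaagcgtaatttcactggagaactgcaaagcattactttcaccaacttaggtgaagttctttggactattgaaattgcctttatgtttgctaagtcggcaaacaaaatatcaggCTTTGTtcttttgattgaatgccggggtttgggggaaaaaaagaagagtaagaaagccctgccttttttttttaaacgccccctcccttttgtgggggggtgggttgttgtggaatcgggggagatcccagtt
The LEF1 promoter held 0 matches, the second TCF7 promoter 2 and the second TCF7L2 promoter 1. The first listed promoters of TCF7 and TCF7L2 and the third of TCF7L2 held 0 and are not printed. Of 35116 RefSeq promoters of this length, 22.8% held at least 1 match. GC content was 47.6% at LEF1, against 70.8% and 62.0% at the TCF7 promoters and 68.0%, 42.4% and 48.4% at the TCF7L2 promoters, with a median of 58.0% over all promoters. The peaks are in hg19 and no annotation of that build was used, so it was not determined which region covers which promoter, nor whether a region lies in an exon, an intron or a neighbouring gene. In the RefSeq gene table for GRCh38.p14, LEF1-AS1 overlaps LEF1 and HADH is a neighbour, VDAC1 overlaps TCF7 and SKP1 is a neighbour, and TCF7L2 lies between VTI1A and HABP2. Open chromatin in a window is therefore not assigned to a gene here.

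The lists held between 57154 and 76495 peaks, and read depth is unknown because they give no read counts. Each peak carries the authors' own value, read as a fold over the local background of the same library. It is used here mainly as the peak's rank within its own list, given as a percentile in which 100 is the strongest peak of the list and 50 the middle one. A region takes the percentile of its strongest peak in that list.

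Of the 57 regions, 17 (29.8%) were called in all 8 lists, beside 20.4% of all 133028 regions. By locus these were 8 of 28 at LEF1, 4 of 7 at TCF7 and 5 of 22 at TCF7L2. Another 11 regions were called in both lines but not in every list, 21 in 697 alone and 8 in KOPN-8 alone, in 1 library or more. Of the 57, 12 rested on 1 library. Shares of these classes over all regions were not counted, so the numbers do not set the loci apart. Within the windows, duplicates shared 70.5% and 70.7% of their regions in 697 and 79.4% and 81.5% in KOPN-8, clone and control libraries of a line shared between 68.8% and 80.6%, and libraries of different lines between 40.4% and 60.0%. In the windows the 697 duplicates lay inside the range of the pairs formed by a 697 clone and a 697 control library. Over all regions, duplicates shared 64.4% and 65.9% in 697 and 69.7% and 71.7% in KOPN-8, clone and control libraries between 59.4% and 64.4% in 697 and between 65.3% and 67.1% in KOPN-8, and libraries of different lines between 38.7% and 42.9%.

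**Figure D1:**
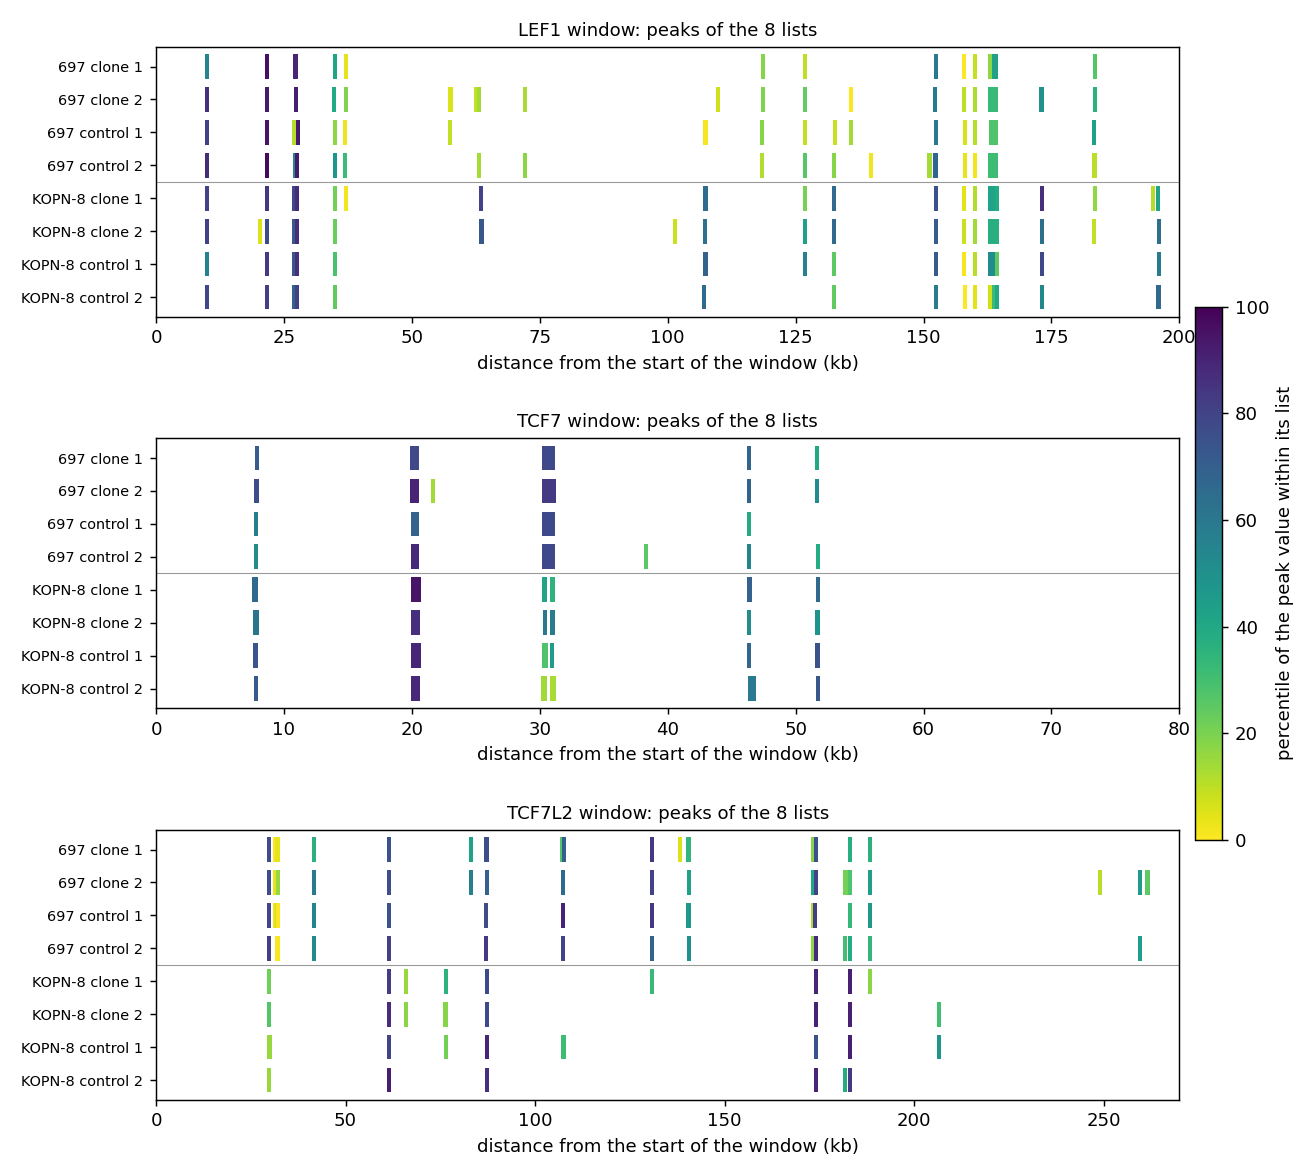
Peaks of the 8 lists along the LEF1, TCF7 and TCF7L2 windows, as distance from the window's start in kb, with 1 row per library (697 above KOPN-8, clone above control) and colour for the percentile of the peak within its list. Peaks narrower than 0.4% of the window are drawn at that width. The TCF7L2 rows hold 14 to 18 peaks in 697 and 6 to 9 in KOPN-8, while the LEF1 and TCF7 rows hold overlapping numbers in both lines.

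The lines were compared first. The TCF7L2 window held more accessible sites in 697. The 697 clone had 16 and 18 peaks and the 697 controls 14 and 15, against 9 and 8 in the KOPN-8 clone and 8 and 6 in the KOPN-8 controls. Every 697 library lay above every KOPN-8 library. The mean was 15.8 ± 1.71 peaks (SD, n = 4) in 697 and 7.75 ± 1.26 in KOPN-8, a ratio of 2.03 (exact permutation of libraries between lines, two-sided p = 0.0286, the smallest that 4 against 4 libraries can give). Peaks covered 6094 ± 635 bp of the window in 697 and 2764 ± 488 bp in KOPN-8 (exact permutation, p = 0.0286). For scale, the TCF7L2 window had 51.9 to 66.7 peaks per Mb in 697, where the whole of chromosome 10 had 21.7 to 28.0, and 22.2 to 33.3 per Mb in KOPN-8, where the chromosome had 22.4 to 24.8. These and the other line comparisons of peaks and covered bases at the 3 loci make 6 tests, and their p-values are unadjusted.

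**Figure D2:**
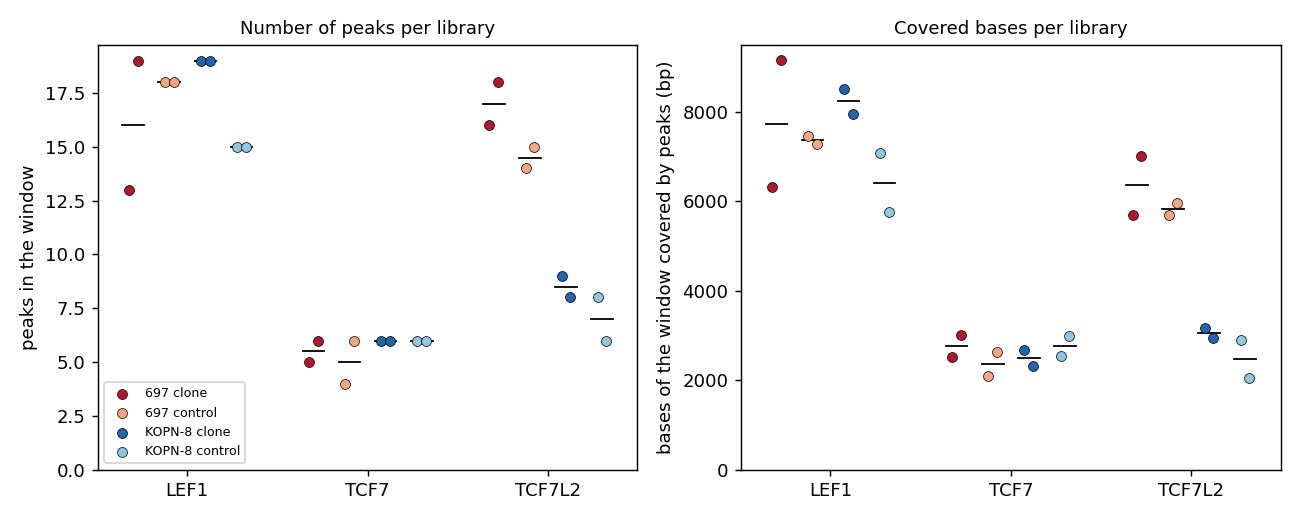
Number of peaks (left) and bases covered by peaks in bp (right) in each window, 1 point per library and a line at the mean of the 2 libraries of a group. At TCF7L2 all 697 points lie above all KOPN-8 points in both panels, and at LEF1 the KOPN-8 clone libraries, with 19 peaks each, lie above the KOPN-8 controls, with 15 each.

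At TCF7L2 the regions that set the lines apart were of several strengths. Called in all 4 libraries of 697 and in none of KOPN-8 were 4 of 22 regions, beside 5.85% of all regions, and the reverse held for 0, beside 7.30%. With lists cut to equal length the first number was 2. The strongest of the 4 were region 4 (chr10:114721430-114721810), at percentiles 36.1 and 58.6 in the 697 clone and 54.7 and 52.1 in the 697 controls, and region 13 (chr10:114820245-114820773), at 34.5 and 42.6 in the clone and 45.8 and 50.2 in the controls. Region 14 (chr10:114853308-114853576) lay between 12.2 and 40.5 and region 3 (chr10:114711689-114712472) between 0.911 and 15.8, so region 3 was among the weaker calls of each list.

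Another 3 regions were called in every 697 library and in 1 KOPN-8 library, where they ranked lower than in any 697 library. Region 11 (chr10:114810596-114811125) stood at percentiles 83.4 and 80.4 in the 697 clone and 83.6 and 69.1 in the 697 controls, and of the KOPN-8 lists only clone 1 called it, at 32.7. Region 10 (chr10:114787032-114787904), the widest of the window, stood at 70.0 and 66.4 in the 697 clone and 90.1 and 80.0 in the controls, and in KOPN-8 only control 1 called it, at 31.3. Region 18 (chr10:114868128-114868515) stood between 34.3 and 46.3 in 697 and at 17.4 in KOPN-8 clone 1 alone. These 3 were picked after their values were seen. With them, 7 of 22 TCF7L2 regions were called in all 4 libraries of 697 and at most 1 of KOPN-8, beside 7.69% of all regions, and 0 in the opposite way, beside 9.18%. Of the other TCF7L2 regions called in part of the libraries, region 2 was called in 3 libraries of 697, between 0.578 and 3.54, region 7 in 3 libraries of KOPN-8, between 18.1 and 35.9, region 21 in 2 of 697, at 45.7 and 44.5, and region 19 in 2 of KOPN-8, at 30.1 and 47.3. Region 16 was called in 697 clone 2, 697 control 2 and KOPN-8 control 2, between 21.3 and 38.9, and the 3 regions of 1 library lay between 5.47 and 24.9.

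A shared core of 5 TCF7L2 regions was open in every library. Regions 15 (chr10:114853704-114854303), 5 (chr10:114741219-114741747) and 9 (chr10:114766861-114767417) were strong in both lines, with percentiles from 69.5 to 88.0 in 697 and from 75.6 to 91.9 in KOPN-8. The other two ranked in opposite ways. Region 1 (chr10:114709427-114710204) stood at 77.3 and 76.8 in the 697 clone and 78.8 and 81.3 in the 697 controls, against 21.5 and 27.0 in the KOPN-8 clone and 15.5 and 15.6 in the KOPN-8 controls. Region 17 (chr10:114862865-114863450) stood at 37.3 and 27.6 in the 697 clone and 33.0 and 38.5 in the 697 controls, against 91.3 and 90.8 in the KOPN-8 clone and 91.2 and 82.5 in the KOPN-8 controls. The lines did not overlap at either region, with a gap of 49.8 points between the lowest 697 and the highest KOPN-8 library at region 1 and of 44.0 points the other way at region 17. Of 27107 regions called in all 8 lists, 0.350% had 697 above KOPN-8 by at least 40 points and 0.339% the reverse, a limit set after these values were seen. Ranks compare a region with its own list, and a change in signal between the lines was not measured.

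**Figure D3:**
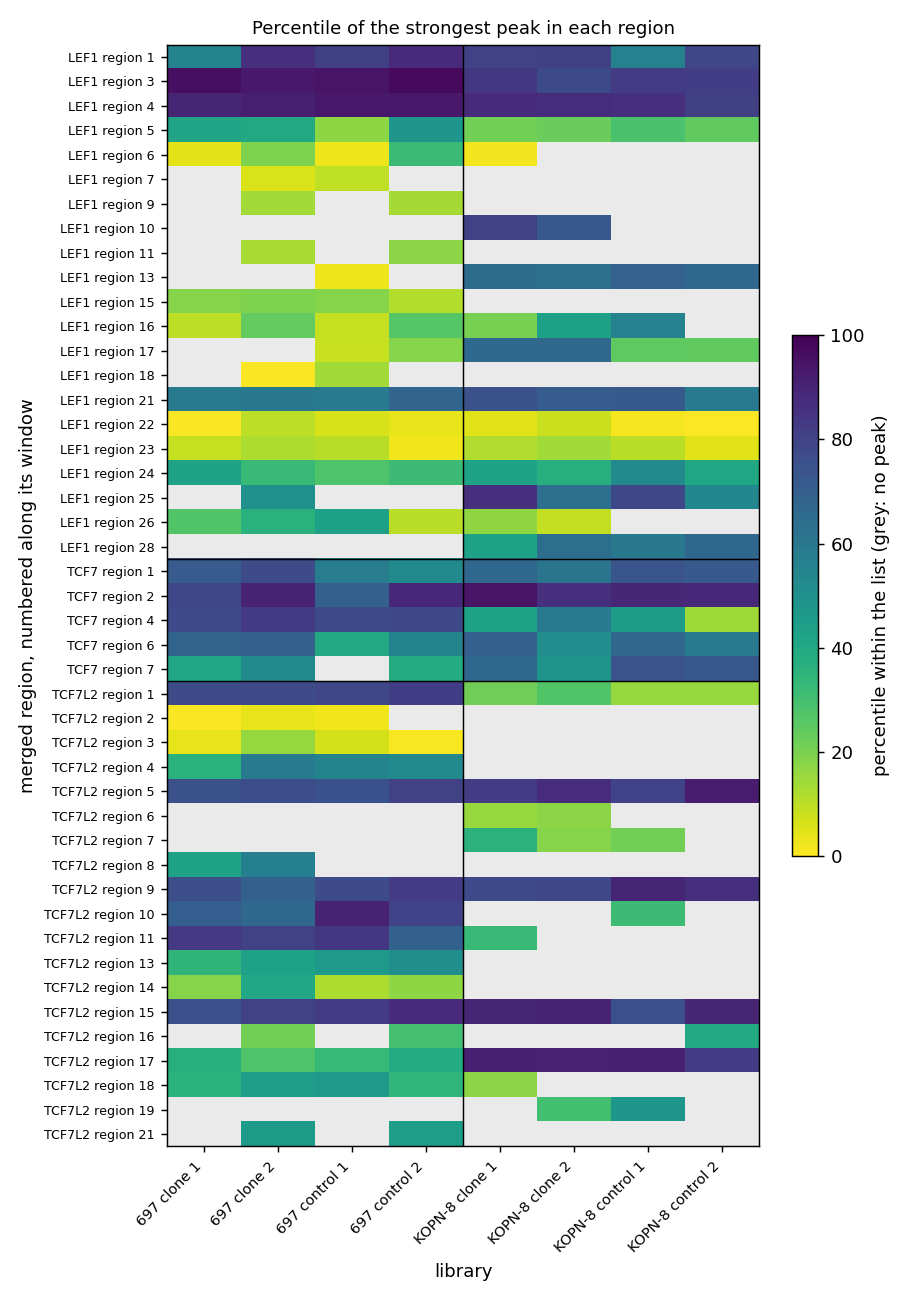
Percentile within its list of the strongest peak in each region called by at least 2 libraries, by library (columns, 697 left of KOPN-8, clone left of control), with grey where a library had no peak. TCF7L2 regions 1 and 17 show opposite ranks in the lines, and LEF1 region 10 is coloured only in the KOPN-8 clone.

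At LEF1 the number of peaks did not separate the lines over whole lists, but the number in the stronger 50% of each list did. The 697 clone had 13 and 19 peaks and the 697 controls 18 and 18, against 19 and 19 in the KOPN-8 clone and 15 and 15 in the KOPN-8 controls. The ranges overlapped and the means were 17.0 ± 2.71 in 697 and 17.0 ± 2.31 in KOPN-8 (SD, n = 4 each, exact permutation, p = 1, where these tied values could not go below 0.0571). Covered bases also overlapped, at 7554 ± 1178 and 7326 ± 1203 bp (exact permutation, p = 0.8). Counting only peaks in the stronger 50% of each list, the 697 libraries held 4 and 4 in the clone and 4 and 5 in the controls, against 9 and 10 in the KOPN-8 clone and 10 and 8 in the KOPN-8 controls. These numbers did not overlap (697 minus KOPN-8, -5 peaks, exact permutation, p = 0.0286). This was 1 of several alternative settings, outside the 6 line tests, and its p is unadjusted. The count also depends on how peaks are divided. LEF1 region 4 counted as 2 such peaks in each KOPN-8 list and in 697 control 2, and as 1 in the other 697 lists. In the top 10% of each list the order was another. The 697 clone had 1 and 2 peaks there, the 697 controls 2 and 2, and each KOPN-8 list 0. By definition 10% of all peaks of a list lie there. With 13 to 19 LEF1 peaks per list, numbers this small cannot be set apart from that share.

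Those top peaks fell in 2 neighbouring regions that every library called. LEF1 region 3 (chr4:108951473-108951883) stood at 96.0 and 93.1 in the 697 clone and 94.6 and 97.4 in the 697 controls, against 83.9 and 77.5 in the KOPN-8 clone and 82.6 and 81.7 in the KOPN-8 controls. LEF1 region 4 (chr4:108956849-108957928) stood between 89.8 and 93.4 in 697 and between 81.2 and 87.7 in KOPN-8. At both regions the lines did not overlap, with 697 higher, as at 19.0% of all regions called in all 8 lists. Over the 3 loci this held for 4 of the 17 such regions, and KOPN-8 was higher without overlap at 1, beside 13.3%. LEF1 regions 21 (chr4:109082140-109082660) and 1 (chr4:108939743-108940105) lay between 55.0 and 87.8 in every library, and the lines overlapped at both.

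Further along the LEF1 window, 3 of 28 regions were called in all 4 libraries of KOPN-8 and at most 1 of 697, beside 9.18% of all regions, and 2 in the opposite way, beside 7.69%, so neither number stood far from the share over all regions. Region 28 (chr4:109125583-109126253) was called in all KOPN-8 libraries, at 41.9 and 63.7 in the clone and 59.6 and 66.6 in the controls, and in no 697 library. Region 13 (chr4:109036928-109037871) stood between 63.1 and 68.7 in KOPN-8 and was called in 697 control 1 alone, at 2.43. Region 25 (chr4:109102922-109103236) stood at 86.4 and 63.6 in the KOPN-8 clone and 78.2 and 53.2 in the KOPN-8 controls, and was called in 697 clone 2 alone, at 49.7. Regions 13 and 25 were picked after their values were seen. The reverse, at region 15 (chr4:109048229-109048860), was a weak site, between 11.7 and 19.3 in the 697 libraries and not called in KOPN-8. In all, 1 of 28 LEF1 regions was called in all 697 libraries alone and 1 in all KOPN-8 libraries alone, 3.57% each, beside the 5.85% and 7.30% of all regions. Of the remaining LEF1 regions, 5, 22 and 23 were called in all 8 lists, region 5 between 17.0 and 47.4 and the others between 0.339 and 13.9. Region 16 was called in every library but KOPN-8 control 2, between 8.78 and 55.8, and region 6 in all 697 libraries and KOPN-8 clone 1, between 1.87 and 31.7. Another 4 were called in 2 of the 697 libraries, between 0.713 and 17.4, and 7 in 1 library, between 2.14 and 13.3.

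The TCF7 window held few peaks, in overlapping numbers in the lines. The 697 clone had 5 and 6 peaks and the 697 controls 4 and 6, against 6 in each of the KOPN-8 libraries (exact permutation between lines, p = 0.429, the smallest that these tied values can give, so that no difference could have been shown). Covered bases were 2567 ± 377 bp in 697 and 2634 ± 274 bp in KOPN-8 (SD, n = 4 each, exact permutation, p = 0.771). Region 2 (chr5:133449840-133450702) was the strongest, at 78.5 and 89.9 in the 697 clone and 69.2 and 88.7 in the 697 controls, against 94.6 and 86.2 in the KOPN-8 clone and 89.1 and 88.7 in the KOPN-8 controls. Regions 1 (chr5:133437543-133438029) and 6 (chr5:133476163-133476870) lay between 39.8 and 77.0 in 697 and between 51.1 and 73.8 in KOPN-8. Region 7 (chr5:133481560-133481872) was called in every library but 697 control 1, and regions 3 and 5 in 1 of the 697 libraries each, at 13.8 and 25.0. The widest, region 4 (chr5:133460133-133461263), ranked at 78.1 and 83.0 in the 697 clone and 78.1 and 78.2 in the 697 controls, against 42.1 and 59.3 in the KOPN-8 clone and 44.7 and 14.4 in the KOPN-8 controls, without overlap. No TCF7 region of the 7 was called in all libraries of 1 line alone. Over all regions the shares were 5.85% for 697 and 7.30% for KOPN-8, and 7 regions are too few to set apart from them.

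The second comparison set each clone against its controls, to ask whether the edited clones differed at these loci. Within a line, 2 against 2 libraries cannot give a p below 0.333, and over both lines the smallest possible is 0.0556, so no test of arms could pass 0.05. At LEF1 the KOPN-8 clone had more peaks, 19 and 19 against 15 and 15 in its controls (exact permutation, p = 0.333), and covered more bases, 8514 and 7960 bp against 7074 and 5757 bp. With only the stronger 50% of each list these KOPN-8 differences were 0.5 peaks and -158 bp. In 697 the clone, with 13 and 19 peaks, enclosed its controls, with 18 and 18. At TCF7L2 the 697 clone had 16 and 18 peaks and its controls 14 and 15, and the KOPN-8 clone 9 and 8 against 8 and 6. Over both lines the TCF7L2 difference was 2 peaks (exact permutation, p = 0.111, the smallest that these values can give) and 556 bp (exact permutation, p = 0.222). With only the stronger 50% of each list the TCF7L2 differences were -0.25 peaks and -207 bp, and with equal lists the difference in bases was -29 bp. At TCF7 the difference over both lines was 0.25 peaks and 76 bp (exact permutation, p = 1 and p = 0.778). The covered bases went opposite ways by line there, clone minus control 412 bp in 697 and -260 bp in KOPN-8, with overlapping arms and an exact permutation p of 0.667 in each.

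Few regions changed with the clone. A gained region had a peak in both clone libraries of a line and in neither of its controls, and a lost region the reverse. In 697, 1 of 57 regions was gained and 1 lost, beside 3.08% and 1.32% of all regions. In KOPN-8, 3 were gained and 0 lost, beside 2.45% and 2.59%. These numbers are too small to set apart from the shares over all regions. Leaving out single libraries gave 7 gained in 697 without 697 clone 1, 4 lost in 697 without 697 control 1 and 7 gained in KOPN-8 without KOPN-8 clone 2. The rule then asks for only 1 library in that arm, so such counts tend to rise. The shares over all regions were not recomputed under this looser rule. No region was gained or lost in both lines.

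The gained region with the highest rank was at LEF1 in KOPN-8. LEF1 region 10 (chr4:108993360-108993836) had values, read as folds over background, of 9.89 and 8.59 in the KOPN-8 clone, at percentiles 80.1 and 72.9. It had no peak in the KOPN-8 controls or in any 697 library. By its smaller percentile it was number 16 of the 3254 regions gained in the KOPN-8 clone, whose median was 19.8. The nearest region lay 109 bp away and was called only in 697 clone 2 and 697 control 2, at 14.0 and 13.6. LEF1 region 26 (chr4:109113167-109113672) was also gained in KOPN-8 but weak, at 16.6 and 9.25 in the clone, and all 697 libraries called it, between 10.3 and 43.0. TCF7L2 region 6 (chr10:114745690-114746041) was gained in KOPN-8 at 15.6 and 17.3, 3942 bp from the shared region 5, and no 697 library called it.

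In 697, TCF7L2 region 8 (chr10:114762937-114763254) was gained, at 42.4 and 57.0 in the clone with no peak in the controls, and no KOPN-8 library called it. It was number 470 of 4102 regions gained in the 697 clone. LEF1 region 17 (chr4:109062336-109062752) was lost in 697, where neither clone library called it and the controls did so weakly, at 8.23 and 18.3. In KOPN-8 the same region ranked at 65.9 and 66.1 in the clone, against 24.8 and 24.6 in the controls. The KOPN-8 clone and controls did not overlap there, with the clone higher. In 697 the order was fixed by the choice of the region as lost.

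Among the 17 regions called in all 8 lists, the percentiles of clone and control libraries did not overlap in either line at 4. The clone went opposite ways in the lines at 3 of them (LEF1 region 4, TCF7 region 1 and TCF7L2 region 1), beside 7.43% of all regions called in all 8, and the same way at 1, beside 9.57%. That 1 was TCF7L2 region 9, at 75.8 and 69.5 in the 697 clone and 77.2 and 82.5 in the 697 controls, and at 77.8 and 78.5 in the KOPN-8 clone and 89.6 and 86.0 in the KOPN-8 controls. The clone ranked below its controls in both lines there. These numbers are too small to set apart from the shares over all regions.

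The shape of the wide regions was compared last. Of the 17 regions called in all 8 lists, 14 were a single peak in each list and 3 were divided in some. The share of regions divided in some list, over all regions called in all 8, was not counted. TCF7 region 4 was 1 peak in each 697 list, 1041 and 1100 bp wide in the clone and 979 and 1019 bp in the controls. In each KOPN-8 list it was 2 peaks, with gaps of 228 and 207 bp in the clone and of 183 and 193 bp in the controls. Such a region, joined in each 697 list and divided in each KOPN-8 list, made up 0.288% of all regions called in all 8, and the reverse 0.155%. LEF1 region 24 (chr4:109092621-109094639) was the widest of the 3 loci at 2019 bp as merged over the lists. Its widest single peak was 2009 bp in 697 (clone 2) and 1509 bp in KOPN-8 (control 1). Of regions called in all 8, 0.520% were at least 2000 bp wide, a limit that lies just below the width of this region. Every KOPN-8 list had a gap before a last peak of 322 to 334 bp, with gaps of 151 and 271 bp in the clone and of 141 and 258 bp in the controls. All 697 lists were continuous there. Elsewhere in the region 697 clone 1 had a gap of 145 bp and KOPN-8 control 2 a gap of 55 bp. Despite its width, region 24 ranked only between 27.6 and 52.1.

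LEF1 region 4 differed between arms in 697. It was 1 peak in each clone list, 951 and 906 bp wide, and 2 peaks in each control list, with gaps of 296 and 122 bp. All KOPN-8 lists, of clone and controls alike, had 2 peaks there, with gaps from 157 to 177 bp. Regions joined in the 697 clone and divided in its controls made up 0.841% of those called in all 8, and the reverse 0.635%. The lists of the 697 clone held 63012 and 76495 peaks and those of the 697 controls 57154 and 70099, and the part of list length in this pattern was not tested.

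**Figure D4:**
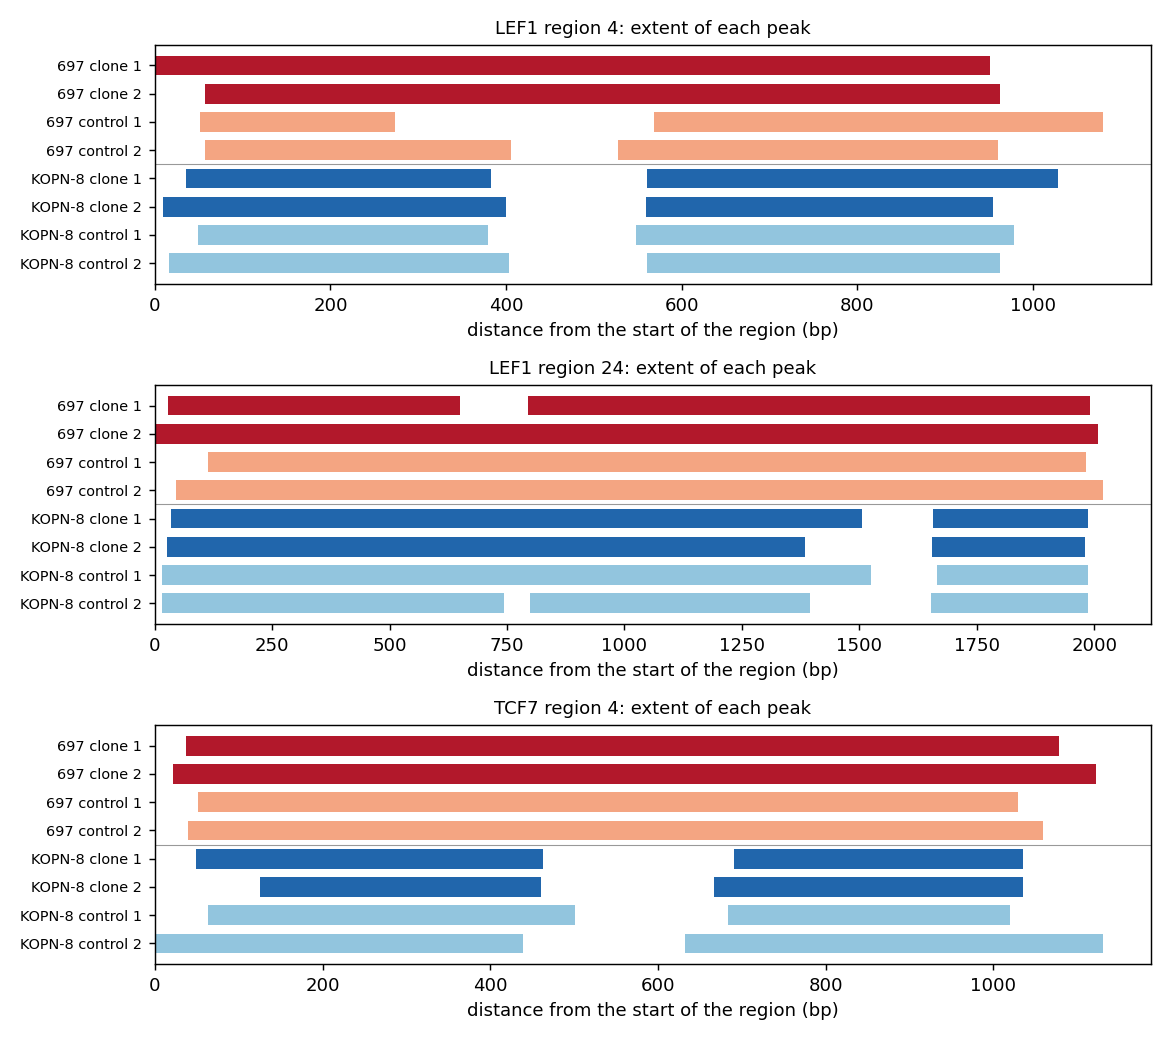
Extent of each peak in LEF1 region 4, LEF1 region 24 and TCF7 region 4, as distance from the start of the region in bp, by library (697 above KOPN-8, clone above control, 1 bar per peak). TCF7 region 4 is 1 bar in the 697 rows and 2 in the KOPN-8 rows, and LEF1 region 4 is 1 bar in the 697 clone rows alone.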

How the data were processed

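ATAC-seq peak lists of 8 libraries were used, 2 from each of 4 groups. The submitters' processing notes name Bowtie2, MACS2 and the hg19 build. Versions, settings, duplicate removal and any shift of cut sites are not given in any source used here. The authors deposited 1 list per library, so calls were not pooled. Each deposited list gives a peak's position and 1 value, read as a fold, a linear ratio to local background. The column has no header, and all values exceed 1, which does not by itself identify a fold. The reading is therefore uncertain, and percentiles depend only on the order of values within a list. The lists hold no other score. Positions are in hg19, counted from 1. Peaks were 200 bp or wider.

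Peaks of the 8 lists sharing at least 1 bp were merged with Python 3.11.15 and numpy 2.4.6. Numbers of peaks and covered bases were compared by two-sided exact permutation of libraries, between lines or between arms within lines. Named by rule were, per locus, each gained or lost region, the 5 regions called in all libraries and the 5 called in all libraries of a single line with the highest smallest percentile, and the widest region. The loci and lists were chosen with earlier results of these data known. Alternatives used stronger or equally long lists, stricter calls, wider merging, shorter windows, a replicate block and 7 of the 8 libraries at a time. The calling code was tested on simulated lists. Other genes of the WNT pathway, B cell markers and SETD2 itself were not analysed here because no annotation in hg19 was used, so the cell type labels and the edit were not checked.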

Additional observations from a re-analysis of the deposited data

Results flagged for a closer look

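In 4 of 26 named regions examined, the clone ranked above its controls in 1 line and below them in the other. The arms did not overlap in either line, and a difference between the lines was not tested. Of the 4, 3 were among the 17 called in all 8 lists, beside 7.43% of all such regions. The other, LEF1 region 17, was named because it was lost in 697, so its order in that line was fixed by the choice. A library without a peak was counted as lowest. At LEF1 region 17 the clone was 41.3 percentile points above its controls in KOPN-8 and had no peak in 697, where both controls did. At LEF1 region 4 it was 3.35 points above in KOPN-8, while in 697 the clone stood at 89.8 and 91.7 and the controls at 93.4 and 93.2. At TCF7L2 region 1 it was 8.7 points above in KOPN-8, while in 697 the clone stood at 77.3 and 76.8 and the controls at 78.8 and 81.3. At TCF7 region 1 the KOPN-8 clone, at 66.7 and 61.7, fell by 8.8 points relative to its controls, at 73.8 and 72.2 (difference -8.8), while the 697 clone, at 71.2 and 77.0, stood above its controls, at 57.5 and 52.1.

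In 7 of 49 groups of 4 libraries examined, 1 library stood apart, with a gap to its nearest neighbour, as a ratio to the group's range, above Dixon's critical value. The critical value is set so that about 1 in 20 groups of independent normal values exceed it. These groups mix clone and control libraries and reuse the same 8 libraries, so that rate may not hold here. For the number of LEF1 peaks in 697, clone 1 stood apart with 13 (ratio 0.833). Among ranks in the 697 libraries, control 2 stood apart at LEF1 region 21, with 67.2 (ratio 0.951), and clone 2 at TCF7 region 4, with 83.0 (ratio 0.98). Among ranks in the KOPN-8 libraries, control 1 stood apart at LEF1 region 1, with 56.2 (ratio 0.904), and at TCF7L2 region 15, with 75.6 (ratio 0.932), and control 2 stood apart at LEF1 region 4, with 81.2 (ratio 0.831), and at TCF7L2 region 17, with 82.5 (ratio 0.943).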

How the results depend on the processing

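The excess of TCF7L2 peaks in 697 over KOPN-8 kept its direction and passed the threshold in the stronger 50% of each list (3.25 peaks), with lists cut to 57154 peaks (5.5 peaks), per 100000 listed peaks, in a shorter window and without any 1 library (7.25 to 8.58 peaks, exact permutation, p = 0.0286 in each). Arm differences could not pass under any setting. In the stronger 50% of each list, 697 minus KOPN-8 at LEF1 was -5 peaks and -2123 bp and at TCF7 312 bp; clone minus control at TCF7L2 was -0.25 peaks and -207 bp over both lines and -0.5 peaks and -612 bp in 697; it was -158 bp at LEF1 and 88 bp at TCF7 in KOPN-8. Regions called in all 8 lists then numbered 4, 2 and 3 at LEF1, TCF7 and TCF7L2, those in KOPN-8 alone 2 at LEF1 and 1 at TCF7L2, and those in 697 alone at LEF1, gained in 697 and lost in 697 numbered 0 each. With equal lists, 697 minus KOPN-8 at LEF1 was -380 bp, clone minus control was -1 peak over both lines and -1042 bp in 697 at LEF1 and -29 bp over both lines and -746 bp in 697 at TCF7L2, and regions in 697 alone numbered 0 at LEF1 and 2 at TCF7L2. With calls covering 50% of a region, 2 TCF7L2 regions were called in all 8, 0 LEF1 regions in either line alone and 1 TCF7L2 region in KOPN-8 alone. In windows without their outer 10%, the TCF7 difference between lines was 54 bp and 0 LEF1 regions were called in KOPN-8 alone. Merging peaks within 100 bp and merging lists by line moved no count by over 1.5 times. The causes were not tested.

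Leaving out 1 library gave ranges that cross 0 for clone minus control at LEF1 (-0.5 to 2.5 peaks over both lines, -5 to 1 peaks and -1056 to 1778 bp in 697), at TCF7 (-0.25 to 0.75 peaks and -54 to 205 bp over both lines, -0.5 to 1.5 peaks in 697) and at TCF7L2 (-134 to 1196 bp in 697), and for 697 minus KOPN-8 in covered bases at LEF1 (-305 to 639 bp) and TCF7 (-218 to 88 bp). Regions in 697 alone ranged from 1 to 2 at LEF1, those in KOPN-8 alone from 1 to 2 at LEF1 and from 0 to 1 at TCF7L2, gained regions from 1 to 7 in 697 and from 3 to 7 in KOPN-8, and lost regions from 1 to 4 in 697 and from 0 to 1 in KOPN-8. With a library left out the rule for these region counts is looser, so they tend to rise. A replicate block, exchanging labels within pairs of the same number, left the differences as they were (1 peak at LEF1, exact permutation, p = 0.875; 2 peaks at TCF7L2, p = 0.125, the smallest that 4 pairs can give) and changed no call. Differences in calls between replicates 1 and 2 correlated between clone and control at 0.01 in 697 and 0.00 in KOPN-8 over 105921 regions. That correlation cannot see a shift in list length shared by libraries of the same number. The longer list was replicate 2 in both arms of 697 and replicate 1 in both arms of KOPN-8. Whether the numbers pair the libraries was therefore not settled. Read depth is unknown, so a site not called may be one below the depth of a library.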
